A study of Mus musculus with 17 samples.

Results

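MiR-187 (mmu-miR-187) was followed in mouse kidney through 8 days after ischemia reperfusion injury (IRI) or sham surgery. It is 1 of 569 miRs on the array, was read as 6 spots per sample, and was selected on these same values because its IRI/sham ratio on day 1 is opposite in sign to that of the later days. Its levels are therefore a description, with no test. The question was which arm carries the day 1 value.

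Kidneys came from C57/BL6 mice aged 10-12 weeks, given as female in the sample labels and as male in the study's methods. There were 8 IRI samples (30 minutes of warm ischemia, harvested 1 day after surgery, on days 3, 5 and 7, on days 10 and 14, and finally on days 21 and 30), 8 sham operated samples of the same days, and 1 untreated naive sample. Each sample was a pool of 3 mice, so each arm has 1 pool per day and the days have to serve as replicates. IRI was labelled with the dye Cy3 and sham with Cy5 on the same array of a day, with no dye swap, and naive was labelled with Cy3 on an array of its own. A dye difference that is equal on all arrays cannot be told apart from a constant IRI/sham ratio, but it cancels in day 1 minus the later days.

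MicroRNAs are short RNAs that guide repressor complexes to messenger RNAs, mostly through pairing of the seed, bases 2 to 8 of the miR. MiR-187 is expressed in kidney and has been reported at low levels in clear cell renal carcinoma. In human monocytes it is induced by the anti-inflammatory cytokine IL-10 and represses TNF. No other miR on the array shares its seed. The closest in sequence, miR-429, differs at 7 positions in the best ungapped alignment, so the spots have no near-identical relative.

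MiR-187 exceeded the background of its channel in all 17 samples, by more than 3 scaled median absolute deviations of the 250 empty spots. Its raw intensity in the IRI samples was 2.01 to 3.36 times the median of the empty spots on 6 of the 8 days, 1.63 times on day 5 and 1.83 times on day 10. In the sham samples it was between 2.68 times (day 10) and 9.04 times (day 5). In naive it was 1.28 times, with 654 against 511, so the naive level rests on the smallest excess relative to background. On the IRI arrays of days 10 and 14 it stood 5.19 and 4.95 scaled deviations above background, the smallest margins of all samples.

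Levels are given as log2 of the normalized intensity, with the standard error (SE) over the 6 spots, which covers the array and not the mice. In sham, miR-187 was at 7.98 (SE 0.09) on day 1. Day 3 gave 8.89, day 5 gave 8.93, day 7 gave 8.54, day 10 gave 8.29, day 14 gave 8.71, day 21 gave 8.82 and day 30 gave 8.39, with SEs between 0.01 and 0.06. Sham day 1 was thus the lowest of the 8 sham samples. Its distance to the nearest later sham sample, that of day 10, was 0.31.

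In IRI, miR-187 was at 8.62 (SE 0.11) on day 1. Day 3 gave 8.09, day 5 gave 7.78, day 7 gave 7.73, day 10 gave 8.17, day 14 gave 7.27, day 21 gave 7.53 and day 30 gave 7.30, with SEs between 0.03 and 0.11. IRI day 1 was thus the highest of the 8 IRI samples, by 0.45 over day 10. In whole tissue, fewer cells of a type and less RNA per cell cannot be told apart.

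**Figure D1:**
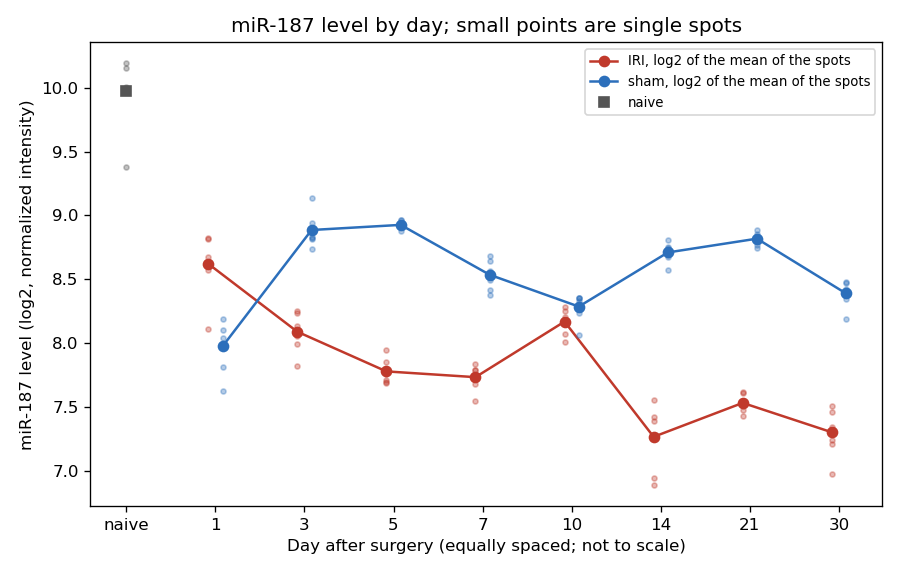
MiR-187 level (log2 of normalized intensity) in naive and on each day after IRI (red) or sham surgery (blue). Small points are the 6 spots of a sample and large points its level. The arms cross between day 1, where IRI is at 8.62 and sham at 7.98, and day 3, where IRI is at 8.09 and sham at 8.89.

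Both arms therefore moved in opposite directions after day 1. Sham day 1 differed from the mean of the 7 later sham days by -0.68 on the log2 scale, which is 1.60-fold lower, or -2.69 SDs of those days (SD 0.25, n = 7). IRI day 1 was 0.92 above the mean of the later IRI days, which is 1.90-fold higher, or 2.61 SDs (SD 0.35, n = 7). Of the 1.60 by which the log2 ratio of day 1 exceeded the mean of the later ratios, 57.8% came from IRI and 42.2% from sham. The later days of the arms did not overlap, with sham at 8.29 or more and IRI at 8.17 or less, although day 10 of both arms lay close to that border. Day 1 of each arm lay outside the later range of its own arm. IRI day 1 fell within the later sham range, and sham day 1 within the later IRI range.

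Within the later days, IRI was lower on days 14 to 30 (7.27 to 7.53, n = 3) than on days 3 to 10 (7.73 to 8.17, n = 4), a difference in means of -0.58 on the log2 scale. These sets did not overlap. The 3 IRI samples of days 14 to 30 were the only ones of the 16 IRI and sham samples under 200 on the linear scale (154 to 185), the floor that the study's methods set for reliable signal. In the authors' processed values 6 of the 7 later IRI days were under it. With that floor, added after seeing the data, the difference was -0.30, and in the authors' processed values it was -0.79 without the floor and -0.0054 with it. The sham sets overlapped, with a difference of -0.02.

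The array joins the arms of a day. Levels were rebuilt from the mean of both channels and their ratio, so an error in the day 1 ratio would move the arms by equal amounts in opposite directions. Processing that scales each channel by itself lacks this coupling. Quantile normalization of the 17 channels gave -0.75 for sham and 0.93 for IRI, and median scaling of the channels gave -0.69 and 0.95. Scaling to the 5S probes, spots for a ribosomal RNA, gave -0.38 for sham and 1.40 for IRI, and sham day 1 then ranked 4 of 8 from the lowest. The authors' processed values, which are linear, gave 177 for sham on day 1 and 277 to 434 on the later days. In IRI they gave 304 on day 1 and 89 to 203 on the later days. Of these processed values, sham day 1 and all later IRI days but day 10 lie under the floor of 200. The same order was seen without any normalization in the rank of the raw intensity among the 569 miRs of the channel. In sham, miR-187 ranked 87th on day 1 and between 68th and 79th later. In IRI it ranked 76th on day 1 and between 84th and 116th later.

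**Figure D2:**
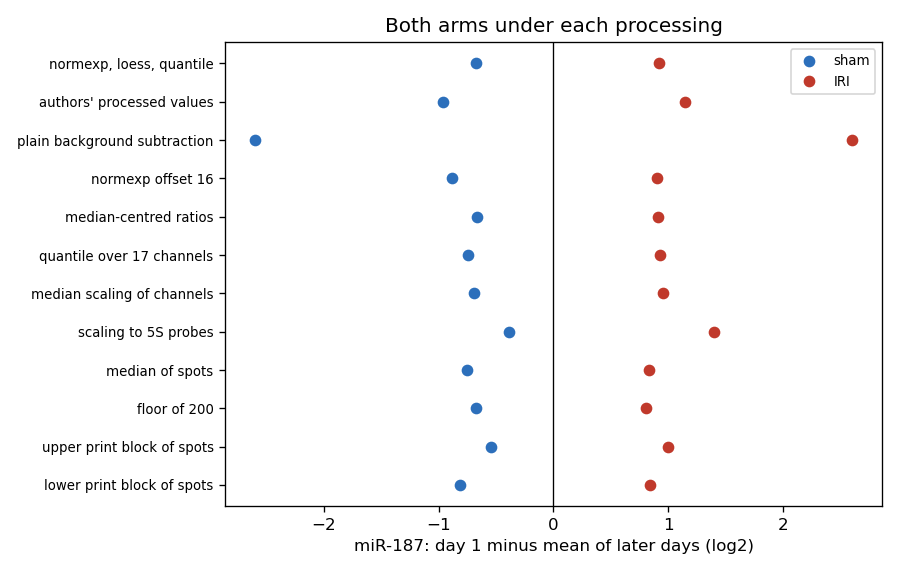
Day 1 minus the mean of the later days for miR-187 (log2) in sham (blue) and IRI (red), 1 row for each way of processing the same arrays. Sham lies below 0 and IRI above 0 in all 12 rows, and the arms lie farthest apart under plain background subtraction, at -2.60 and 2.60, where the median shift of the 162 miRs is itself -1.40 in sham and 1.34 in IRI.

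The log2 IRI/sham ratio was 0.65 on day 1 (SE 0.04 over the spots), that is, 1.57-fold higher in IRI, and all 6 spots were above 0. Day 3 gave -0.80, day 5 gave -1.15, day 7 gave -0.80, day 10 gave -0.12, day 14 gave -1.44, day 21 gave -1.28 and day 30 gave -1.09. None of the 6 spots was above 0 on any of these days. The mean of the 7 later ratios was -0.95 (SD 0.44, n = 7). This mean depended on the processing. It was -4.40 under plain background subtraction and 0.082 under scaling to the 5S probes, where 4 of 7 later ratios lay below 0. The ratio closest to 0 was that of day 10 (SE 0.04), which still lay 0.76 from the ratio of day 1. Day 10 was measured and left out of the published series, with no reason given.

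**Figure D3:**
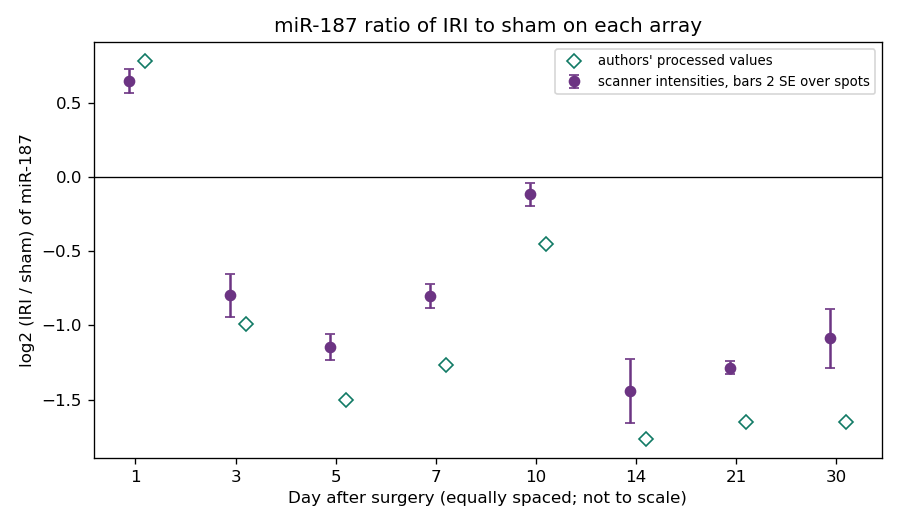
Log2 ratio of IRI to sham for miR-187 on the array of each day, from the scanner intensities (filled, bars of 2 SE over the 6 spots) and from the authors' processed values (open). Day 1 is above 0 in both, at 0.65 and 0.78, and the other 7 days are below 0 in both.

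Naive had the highest miR-187 level of the 17 samples, at 9.97 (SE 0.12). It was 2.06-fold above the highest sham sample, that of day 5, and 2.55-fold above IRI day 1, which has the same dye. Sham day 1 was 3.99-fold below naive and IRI day 14 was 6.51-fold below it. The rank of the raw intensity was also highest in naive, at 52nd, and the authors' processed value was 530. This order depends on how the naive array is brought to the level of the others. Under median scaling of the channels naive ranked 5 of 17, under plain background subtraction 4, and under scaling to the 5S probes 17.

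In descending order, naive was followed by sham on days 5, 3, 21 and 14, IRI on day 1, sham on days 7, 30 and 10, IRI on days 10 and 3, sham on day 1, and IRI on days 5, 7, 21, 30 and 14. As a description, neighbours in this order lay more than 2 SE of the spots apart at 6 of 16 steps. The spots show the error of an array and not the spread between pools, so this orders the arrays and tests nothing about the days. The steps were naive to sham day 5, sham day 21 to sham day 14, sham day 7 to sham day 30, sham day 1 to IRI day 5, IRI day 7 to IRI day 21, and IRI day 21 to IRI day 30. The other neighbours lay within that spread.

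For scale, 162 miRs that reached a level of 200 in at least 1 sample were taken in the same way. A positive ratio on day 1 with 7 negative later ratios was found for 9 of them, miR-187 included, or 5.56%, and the opposite for 3 or 1.85%. Sham day 1 was the lowest sham sample for 14.2% of miRs, IRI day 1 the highest IRI sample for 20.4%, and both together held for 3 miRs or 1.85%. The choice of miR-187 used these values, so nothing is read from its place among them. Without day 5 the pattern in either direction was met by 19 miRs in place of 12.

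**Figure D4:**
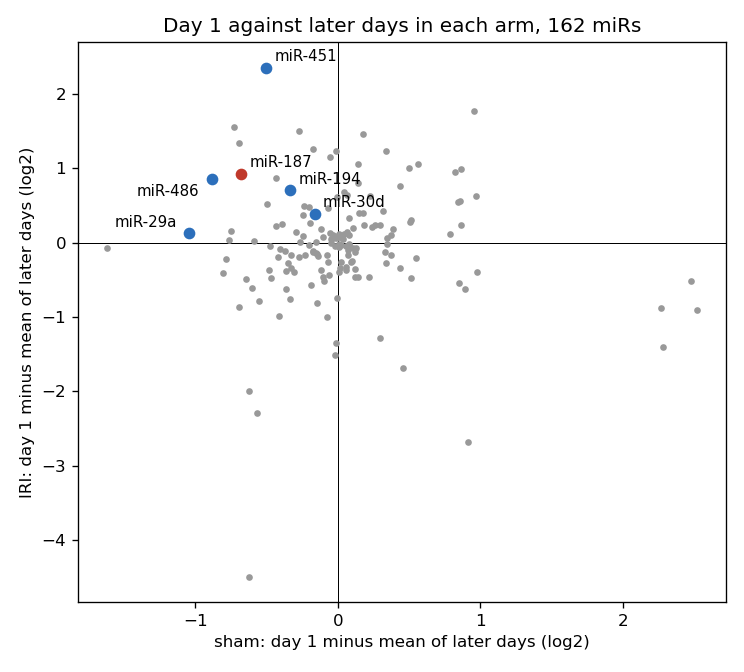
Day 1 minus the mean of the later days (log2) in sham (horizontal) and IRI (vertical) for 162 miRs. MiR-187 (red) lies at -0.68 and 0.92, near miR-486, while miR-451 and miR-29a lie farther out along a single arm.

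The other 8 miRs with the ratio pattern of miR-187 were miR-194, miR-22, miR-29a, miR-30d, miR-30e, miR-429, miR-451 and miR-720. They differed in the arm that moved. For miR-29a, known to repress collagens, sham day 1 was 1.04 below the later sham mean (difference -1.04) and IRI day 1 was 0.13 above its own. For miR-451, a red blood cell miR, IRI day 1 was 2.35 above the later IRI mean and sham differed by -0.50. For miR-30e and miR-429, both epithelial miRs, IRI was higher by 1.16 and 1.23, and sham differed by -0.06 and 0.34. The miRs with both arms at their extreme on day 1 were miR-187, miR-30d and miR-486. For miR-30d the sham margin was very small, with day 1 at 10.861 and the lowest later sham sample at 10.866. MiR-486, another red blood cell miR, came closest in size, with -0.88 in sham and 0.85 in IRI, and miR-30d had -0.16 and 0.39.

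The IRI/sham ratio profile over the 8 arrays was most like that of miR-187 for 5 miRs, by Pearson's r across arrays, given as a description over points that share the array of a day. They are shown to let their seeds be compared, with the seed in capitals, as the array's files list them.
miR-451: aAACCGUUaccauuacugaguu
miR-29c: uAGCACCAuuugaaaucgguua
miR-29a: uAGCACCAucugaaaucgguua
miR-203: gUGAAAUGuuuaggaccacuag
miR-425: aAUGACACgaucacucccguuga
In RefSeq (GRCm38.p6) they match 1 locus each, miR-451 at chr11:78073186-78073207 (plus strand), miR-29c at chr1:195037600-195037621 (plus), miR-29a at chr6:31062673-31062694 (minus), miR-203 at chr12:112130927-112130948 (plus) and miR-425 at chr9:108568789-108568811 (plus). MiR-29c and miR-29a share a seed with each other, and none of the 5 shares that of miR-187.

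The r with miR-187 was 0.892 for miR-451, 0.873 for miR-29c, 0.859 for miR-29a, 0.855 for miR-203 and 0.845 for miR-425 (n = 8 arrays). Without day 1, a comparison added after seeing the data, r over the other 7 arrays was 0.726, 0.549, 0.483, 0.518 and 0.594 in the same order. The day 1 ratio was 1.81 for miR-451, 1.93 for miR-29c, 0.85 for miR-29a, 1.63 for miR-203 and 0.14 for miR-425, all positive. The later ratios of miR-451 lay between -2.27 and -0.08 and those of miR-29a between -0.57 and -0.09. Those of miR-203, a skin and epithelial miR, spanned 0, from -0.71 to 0.48. By limma, 2 of the 162 miRs had a day 1 ratio that differed from the later ratios at an adjusted p under 0.05, both higher on day 1 (1.23%). Day 1 is 1 array, assumed in this fit to vary like the later ones, so a difference of that day cannot be told apart from one of its array or pools. They were miR-29c (difference 2.28), picked above for a profile that includes day 1, and miR-7a (difference 1.44), named after its value was seen, so neither is given a p here. The count ran from 0, without day 7 or day 14, to 9 without day 5, and was 1 without day 3 and 5 without day 10 or day 30. Unadjusted p was under 0.05 for 27 miRs.

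**Figure D5:**
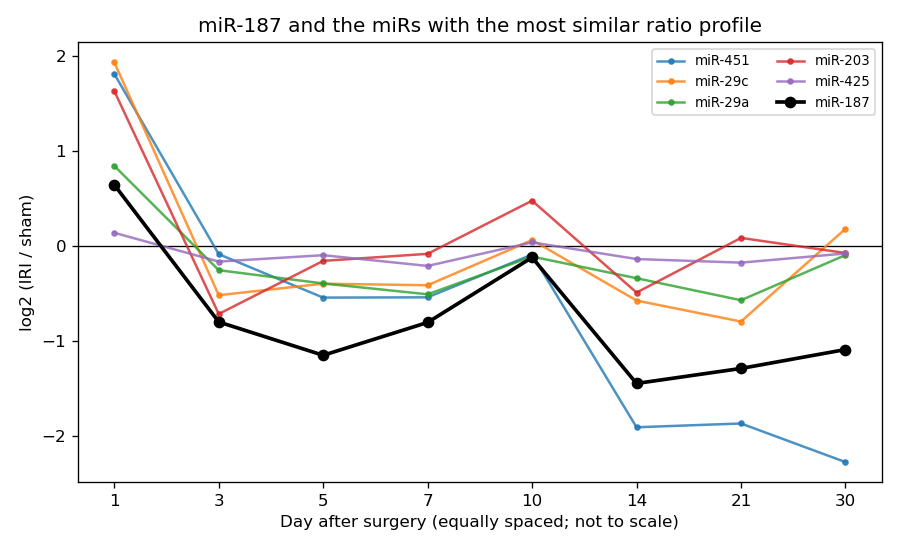
Log2 ratio of IRI to sham on each day for miR-187 (black) and the 5 miRs most like it by Pearson's r over the 8 arrays. All 6 lines are above 0 on day 1 and fall by day 3, and miR-203 and miR-29c come back above 0 on some later days, as does miR-425 on day 10.

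By level over the 17 samples, the miRs most like miR-187 were miR-30c-2* (r = 0.836), miR-22 (0.821), miR-192 (0.772), miR-699 (0.730) and miR-720 (0.713). Without naive, r over the other 16 samples was 0.758, 0.685, 0.669, 0.482 and 0.509 in the same order. MiR-22 was also highest in naive, at 11.20 against at most 9.62 elsewhere. MiR-192, a miR of the kidney tubule, had a ratio of -0.30 on day 1 and a later mean of -0.96, so that it was already lower in IRI on day 1, and its sham day 1 differed by 0.14 from the later sham mean.

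Over days 3 to 30, limma (Benjamini-Hochberg adjusted p under 0.05, array as block) called 29 of 162 miRs lower in IRI (17.9%) and 30 higher (18.5%). Leaving out day 7, 14, 21 or 30 gave 34, 31, 30 or 39 calls in all in place of 59. With each array centred on its median ratio the split was 33 higher and 10 lower, with median scaling of channels 24 and 366, with 5S scaling 103 and 1, and with plain subtraction 0 and 11.

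Of 13 measured miRs of kidney epithelium, 8 were lower in IRI, 1 was higher and 4 did not pass, with a median mean ratio of -0.40 against -0.01 over the 162 miRs. MiR-200a, which holds epithelial identity, fell by 1.21 (log2 ratio -1.21, SE 0.32, adjusted p = 0.0247 by limma). MiR-192 fell by 0.96 (ratio -0.96, adjusted p = 0.0122 by limma) and miR-194, from the same clusters, fell by 0.89 (ratio -0.89, adjusted p = 0.0017 by limma). MiR-10a, from a Hox cluster, rose by 0.66 (adjusted p = 0.0379 by limma). On day 1, IRI was at its highest for 8 of these 13 (20.4% of all 162 miRs) and sham at its lowest for 3 (14.2% of all). The median day 1 shift was 0.63 in IRI and 0.12 in sham, against -0.02 and -0.01 over the 162 miRs.

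Of 11 injury and repair miRs, 10 were higher in IRI over days 3 to 30 and 1, miR-34a, did not pass (0.00), with a median of 1.37. MiR-21 rose by 2.58, miR-199a-3p by 2.04 and miR-155 by 1.501, with adjusted p of 0.000198, 0.000322 and 0.0030 by limma. For miR-146b the rise was 1.79, given without a p because of the filter. Sham day 1 was the lowest for 2 of the 11 (14.2% of all 162 miRs) and IRI day 1 the highest for 1 (20.4% of all), with median shifts of -0.01 and -0.57.

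Of the study's 9 miRs, the other 8 all passed by limma, 5 higher (miR-214, miR-199a-3p, miR-146a, miR-20a and miR-21) and 3 lower (miR-805, miR-192 and miR-194). Over all 162 miRs, 18.5% were higher and 17.9% lower. The authors' earlier work picked the 9 for differing between IRI and sham kidneys at every time it measured. The paper cites that work for this time course. The calls therefore follow from the choice and are not support. Among the lower ones, the later mean was -1.93 for miR-805, and its day 1 ratio of -0.69 had the same sign. For miR-805 the day 1 shift was 1.23 in IRI and -0.01 in sham. For miR-194 it was 0.71 and -0.33, the nearest of the 8 to miR-187 in having both arms move in opposite directions. For miR-146a, the day 1 ratio was -0.11 and the shifts were -1.28 in IRI and 0.30 in sham. For miR-214 the day 1 ratio was -0.34, with shifts of -2.28 and -0.57.

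The tissue label was checked with kidney epithelial miRs, of which 5 of 7 were above background in all 17 samples and none was always below it. Their summed normalized intensity was 23592 in IRI day 1, above the later IRI range of 16623 to 19607, and 24217 in sham day 1, inside the later sham range of 18451 to 25177. The 3 erythroid miRs summed to 1209 in IRI day 1, above 328 to 600 later, and to 497 in sham day 1, inside 395 to 1491. Of these 1 was above background in all samples. The 5 leukocyte miRs summed to 2531 in IRI day 1, inside 1447 to 3266. In sham day 1 they reached 1123, inside 820 to 1177. Both endothelial miRs summed to 9107 in IRI day 1, above 5399 to 7613, and to 6001 in sham, inside 4998 to 8830. The sum of the 4 miRs of smooth muscle and fibroblasts was lowest on day 1 in both arms. It was 5543 against 7040 to 14430 in IRI and 4185 against 4475 to 12784 in sham. This does not hold for each miR. In sham, miR-199a-3p was at 9.92 on day 1 against a later lowest of 9.14, and miR-214 at 9.39 against 8.77. The 4 skeletal muscle miRs, none above background in all samples, summed to 517 in IRI day 1, above 391.1 to 450.9 later. In sham day 1 they reached 417, inside 383 to 425. MiR-122 of liver was at or under 104 in IRI and reached 3092 in sham on day 30. Without that day the sham day 1 shift of miR-187 was -0.72. The 3 measured endocrine and neural miRs, none above background in all samples, summed to 299 in sham day 1, below 339 to 385 later. In IRI day 1 their sum lay inside the later IRI range. MiR-7, also on that list, had no match by name, although the array carries miR-7a. The part of these cell types in the day 1 values of miR-187 was not tested.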

How the data were processed

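Kidney miRs of 17 pooled samples were read on 9 arrays. The authors deposited spot intensities, with neither background correction nor normalization, and a table of processed linear signal (1 value for each miR in a sample). How that table was made is not given in the labels or methods. Its columns correlated with their own channel at 0.981 to 0.9996 and with the other channel of the array at 0.956 or less. From the spot intensities, background was corrected with normexp (limma 3.58.1, R 4.3.3, offset 50), 6 spots per miR were averaged, channels were matched by loess (span 0.3), and mean log2 intensities were quantile-normalized with the naive array. Spots of miR-187 carried the shift of their mean. The limma fits used each array's log2 IRI/sham ratio over the 162 miRs reaching 200 in at least 1 sample, with days as replicates, so p-values measure the spread between pools and days. The fits were tested on simulated data with planted changes. The median coefficient of variation between spots was 4.18% to 16.7%, highest in IRI day 14. The precision is limited by the number of arrays.

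MiR-187, the miR lists and the tests were chosen with earlier results of these data known. The miRs named are the study's 9, the 5 closest to miR-187 by ratio and the 5 closest by level, those sharing its sign pattern, and up to 4 of each list with the largest later ratio. MiR-486, miR-34a, miR-7a, miR-199a-5p and the marker miR-122 were named outside this rule, after their values were seen. Alternatives were other background corrections, scalings, filters and floors, the median of the spots, the authors' processed values, no block, an intensity trend, and days left out. The print blocks of spots were compared as an alternative chosen after seeing the data. No sequence of miR-187 is printed.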

Additional observations from a re-analysis of the deposited data

Results flagged for a closer look

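For miR-187, the 7 later sham samples all lay above sham day 1 and the 7 later IRI samples all lay below IRI day 1, so the arms moved in opposite directions. Day 1 minus the mean of the later days was 1.60 larger in IRI than in sham on the log2 scale. This difference was not tested, since miR-187 was chosen for it.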

How the results depend on the processing

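The day 1 shifts of miR-187 kept their sign in sham and in IRI under all 11 alternatives to the processing, and IRI carried 50.1% to 78.5% of the change in ratio. Relative to the median shift of the 162 miRs in each arm, added after seeing the data and run for 9 of these alternatives, IRI carried 51.4% to 59.4%, and plain subtraction gave -1.20 in sham and 1.27 in IRI. Median scaling and 5S scaling are the same by construction once the median is taken off (-0.62 and 0.90). In sham the shift was -0.96 from the authors' processed values, -2.60 under plain background subtraction and -0.38 under scaling to the 5S probes. In IRI it was 2.60 under plain subtraction and 1.40 under 5S scaling. The upper and lower print blocks of spots, chosen after seeing the data, gave -0.55 and -0.82 in sham and 1.00 and 0.84 in IRI. With each later day left out, sham was between -0.74 and -0.63 and IRI between 0.85 and 1.00. The day 1 ratio was 1.86 under 5S scaling. The mean later ratio was -4.40 under plain subtraction and turned to 0.082 under 5S scaling, with 4 of 7 later ratios below 0. Under that scaling the median later ratio of the 162 miRs was 0.84 and their median day 1 ratio 1.11, so relative to the median, where it equals median scaling by construction, miR-187 was at -0.76 later and 0.75 on day 1. Under plain subtraction the median later ratio was -2.47. With days left out the mean later ratio was between -1.09 and -0.87.

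The opposite sign pattern, met by 12 miRs, was met by 7 with the processed values, 3 with median-centred ratios, 1 with 5S scaling, 20 with no filter, and 12 to 19 with a day left out. MiR-187 met it in each of these processings but 5S scaling. The 59 limma calls over the later days became 11 with plain subtraction, 390 of 547 miRs with median scaling, 104 of 566 with 5S scaling, 32 with the floor of 200, and 30 to 68 with a day left out. Without the replicate block, which pairs IRI and sham of an array, there were 50. The 2 calls for day 1 became 0 with plain subtraction or 5S scaling, 1 with median-centred ratios, 10 with median scaling, 7 with the floor or no filter, 9 with an intensity trend, 5 without day 10, and 0 to 9 with a day left out. The causes were not tested. With 1 pool per arm and day, no day has a replicate, and the number of arrays limits every value. In scaled deviations miR-187 stood closest to background in IRI days 10 and 14, and as a multiple of background in naive.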
